A study of Mus musculus with 53 samples.

Results

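Keap1 was 1 of 11 genes targeted by a pool of lentiviral vectors in mouse lung tumours, and its tumours were followed here in 3 genotypes at 15 weeks after delivery. The members are all tumours listed under the target label Keap1 in the mice given the pool. They number 17565 of 335123 listed tumours in 35 mice, 7854 of them in 10 KTC mice, 7581 in 12 KPTC mice and 2130 in 13 KLTC mice. The whole table lists 409584 tumours in 53 mice, and the 18 mice studied at 9 weeks hold 0 Keap1 tumours. The comparison group is the 91281 inert tumours of the same 35 mice, listed under 1 label for all inert guides of the pool.

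Each vector carried Cre recombinase, a guide RNA and a random barcode, and the cells of a tumour inherit the barcode of their founding vector. Vectors were given through the trachea, barcodes were amplified from the DNA of whole lungs, and each mouse gave 1 library. By the usual naming of such strains, all 3 genotypes share a fluorescent reporter (T) and a Cas9 allele (C). KPTC mice add an allele that lets Cre delete p53 (P), and KLTC mice one that lets Cre delete Lkb1 (L). By this design the losses are meant to occur in every tumour of those mice, the inert ones too, but they were not measured. KTC and KPTC are the Lkb1-intact genotypes and KLTC is the Lkb1-deleted one. The ages of the mice and the promoter that drives Cre are not stated in the labels. A whole-lung barcode readout carries no expression, so the loss of Keap1 protein in each tumour was not measured, and tumours in which Cas9 left a working allele count as Keap1 tumours.

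Keap1 (RefSeq gene 50868, protein-coding) is the substrate adaptor of a cullin-based ubiquitin ligase that marks the transcription factor Nrf2, encoded by Nfe2l2, for degradation. Oxidants and electrophiles modify cysteines of Keap1, Nrf2 then accumulates, and genes of glutathione synthesis, thioredoxin recycling and detoxification are switched on. KEAP1 is often mutated in human lung adenocarcinoma, frequently together with STK11, the human gene for LKB1, and this co-occurrence gives the comparison of Lkb1-intact with Lkb1-deleted mice its interest. Lkb1 is a kinase that activates AMPK and its relatives. Keap1 was the only gene of the Nrf2 pathway among the 11 targets, and the other 10 are tumour suppressors of other pathways.

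At 15 weeks, Keap1 tumours were close in size to the inert tumours beside them in the Lkb1-intact genotypes, and no difference passed the test in any genotype. In KTC mice the log-normal mean size of Keap1 tumours was 1.05-fold that of inert tumours, with a 95% interval of 0.985 to 1.12. In KPTC mice it was 1.04-fold, with an interval of 0.960 to 1.14. In KLTC mice it was 1.19-fold, with a much wider interval of 0.934 to 1.51. These intervals leave out a 1.5-fold rise in both Lkb1-intact genotypes and barely reach it in KLTC mice. The log-normal mean used for these ratios is the mean size that a log-normal distribution with the observed mean and variance of log size would have.

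The sizes behind these ratios differed widely between mice and genotypes. In KTC mice the log-normal mean of Keap1 tumours was 1348 cells in the lowest mouse, 2441 cells in the median mouse and 3647 cells in the highest. That of inert tumours was 1179, 2432 and 3624 cells. In KPTC mice the Keap1 values were 1431, 1999 and 4633 cells and the inert values 1360, 1823 and 5001 cells. The ranges of Keap1 and inert tumours overlapped almost fully in both genotypes. In KLTC mice the lowest, median and highest Keap1 values were 2418, 13654 and 69783 cells, and the inert values were 1824, 7932 and 70047 cells. Both kinds of tumour spanned more than an order of magnitude in KLTC mice, and both highest values came from replicate 7.

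The per-mouse log2 ratio of Keap1 over inert removes that shared level. In KTC mice it averaged 0.07 ± 0.12 (SD, n = 10), from -0.09 in replicate 6 through a median of 0.09 to 0.26 in replicate 1, and it was above 0 in 6 of 10 mice. The two-sided exact sign-flip permutation test gave p = 0.107, or 0.169 after Benjamini-Hochberg adjustment over the 11 targets. In that genotype 45.5% of the 11 targets passed the same test, and Keap1 ranked the seventh by mean effect. In KPTC mice the ratio averaged 0.05 ± 0.20 (SD, n = 12), from -0.15 in replicate 11 to 0.57 in replicate 2, and 6 of 12 mice lay above 0. Without replicate 2 the mean was 0.0072. The exact test gave p = 0.424 and the same value after adjustment. Here 72.7% of targets passed, and Keap1, Rbm10 and P53 were the 3 that did not, so that Keap1 ranked 10 of 11.

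In KLTC mice the ratio averaged 0.25 ± 0.58 (SD, n = 13) and was above 0 in 9 of 13 mice. It ran from -0.83 in replicate 5 through a median of 0.27 to 1.51 in replicate 2, where the Keap1 log-normal mean was 13654 cells against 4800 cells for inert tumours, and without which the mean was 0.14. The exact test gave p = 0.151 and an adjusted p of 0.306, while 9.09% of targets passed, namely APC alone, a negative regulator of Wnt signalling that is named here after its value was seen. Keap1 ranked the sixth. The SD in KLTC mice was 0.58 against 0.12 and 0.20 in the other genotypes. KLTC mice held 15 to 745 Keap1 tumours each, with a median of 126, and 3 of 13 held under 100, whereas the medians were 791.5 in KTC and 539.5 in KPTC mice.

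**Figure D1:**
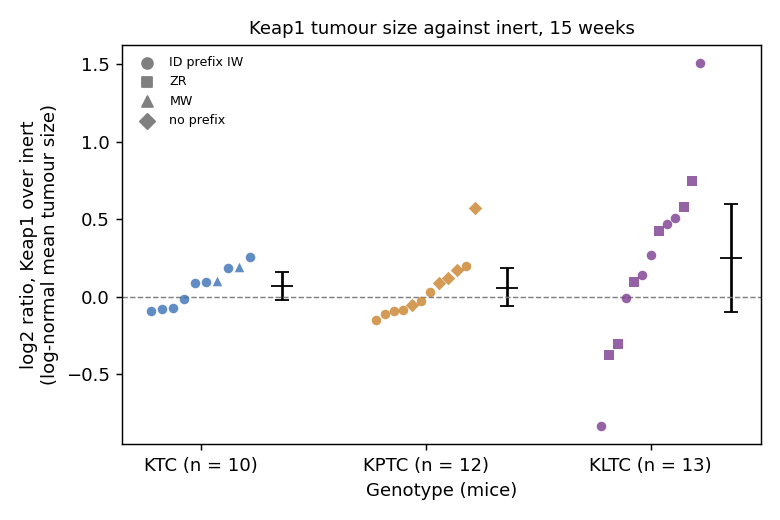
Keap1 over inert log-normal mean tumour size within a mouse, as a log2 ratio (vertical axis), in KTC, KPTC and KLTC mice (horizontal axis), a point per mouse in rising order with its shape giving the letters that open the mouse name, and a bar for the mean with its 95% interval. The means are 0.07, 0.05 and 0.25, each interval holds 0, and the KLTC mice spread from -0.83 to 1.51.

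Mice fall into sets by the letters that open their names, and no label says what these mean. In KLTC mice the ratio was 0.29 ± 0.70 (SD, n = 7) in mice of prefix IW and 0.19 ± 0.47 (n = 6) in mice of prefix ZR, which overlap. In KPTC mice it was -0.04 ± 0.12 (n = 7) in mice of prefix IW and 0.18 ± 0.24 (n = 5) in mice without a prefix, so the direction of the pooled value is not that of the IW mice. In KTC mice it was 0.05 ± 0.13 (n = 8) in IW mice and 0.15 ± 0.06 in the other 2, of prefix MW. Differences between prefixes were not tested.

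The size distributions of Keap1 and inert tumours were also compared at fixed percentiles, which do not rest on a log-normal shape. At the median, the log2 ratio of Keap1 over inert was 0.01 (95% interval -0.03 to 0.05) in KTC mice. It was 0.00 (-0.08 to 0.07) in KPTC mice and -0.00 (-0.21 to 0.20) in KLTC mice. The median Keap1 tumour held 1024 cells in the median KTC mouse and 983 cells in the median KPTC mouse. Listed sizes fall in steps, with between 507 and 3352 distinct sizes per mouse, so medians often tie.

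Higher in the distribution the intervals widened, and the estimates moved up through the 99th percentile in KPTC mice, but not in the other 2 genotypes. At the 90th percentile the log2 ratio in KTC mice was 0.09 (-0.02 to 0.22). It was 0.10 (-0.05 to 0.25) in KPTC mice and 0.22 (-0.21 to 0.65) in KLTC mice. At the 95th percentile it was 0.08 (-0.15 to 0.31), 0.14 (-0.08 to 0.35) and 0.26 (-0.32 to 0.90), and 7 of 10, 8 of 12 and 7 of 13 mice lay above 0. Single mice moved these values: the KTC value lay between 0.008 without replicate 9 and 0.13 without replicate 3, and the KPTC value was 0.07 without replicate 2. The KLTC value was 0.02 without replicate 2 and 0.38 without replicate 7. At the 99th percentile it was 0.06 (-0.39 to 0.61), 0.19 (-0.27 to 0.67) and -0.19 (-0.80 to 0.40). None of these passed after adjustment over 110 tests per genotype by exact sign-flip tests, in which 23.6%, 43.6% and 0% of all target and measure pairs passed in KTC, KPTC and KLTC. With 15 to 745 Keap1 tumours in a KLTC mouse, the 99th percentile there is set by few tumours.

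**Figure D2:**
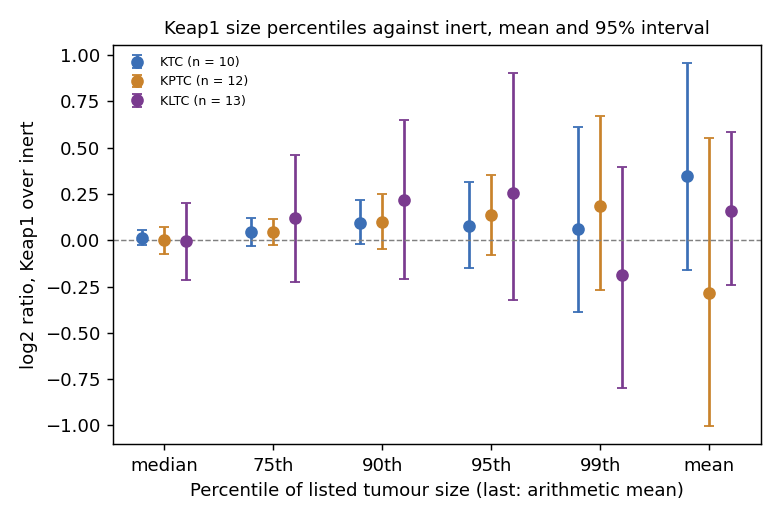
Mean log2 ratio of Keap1 over inert tumour size (vertical axis) at the median, 75th, 90th, 95th and 99th percentile and for the arithmetic mean (horizontal axis), with 95% intervals, for mice of the 3 genotypes (n = 10, 12 and 13). All intervals hold 0, and they widen from the median, -0.03 to 0.05 in KTC, to the 99th percentile, -0.39 to 0.61.

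The share of tumours above a fixed size was likewise close to that of inert tumours. Among KTC Keap1 tumours, 548 of 7854 (6.98%) held at least 10000 cells, against 2656 of 39940 inert tumours (6.65%). In KPTC mice the shares were 463 of 7581 (6.11%) and 2201 of 39164 (5.62%), and in KLTC mice 324 of 2130 (15.2%) and 1587 of 12177 (13.03%). Averaged over mice, Keap1 exceeded inert by 0.523 percentage points (95% interval -0.275 to 1.33, higher in 8 of 10) in KTC mice. The excess was 0.480 points (-0.182 to 1.13, 8 of 12) in KPTC mice and 1.62 points (-0.588 to 3.85, 9 of 13) in KLTC mice. It was 0.306 points in KTC mice without replicate 5 and 0.339 without replicate 9, and 1.05 points in KLTC mice without replicate 1. Adjusted p-values by exact sign-flip test were 0.359, 0.206 and 0.434.

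Single mice show how much of this is counting error. In KTC replicate 5, 9.08% of Keap1 tumours held at least 10000 cells (exact Clopper-Pearson 95% interval 7.10 to 11.4), against 6.60% of inert tumours, the widest gap in KTC mice. In KTC replicate 2 the share was 5.62% (4.42 to 7.03) against 6.77%. In KLTC replicate 10 it was 43.2% (35.5 to 51.2) against 37.5%, and in KLTC replicate 1, with 15 Keap1 tumours, 13.3% (1.66 to 40.5) against 4.88%. Over all 35 mice, the inert share lay inside the Keap1 interval in 32 and below it in 3, which were KTC replicate 5, KPTC replicate 7 and KLTC replicate 6. These intervals cover the counting error of the Keap1 share only, since barcoded tumours were counted after PCR. The inert share was taken as a fixed value, without its own counting error.

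**Figure D3:**
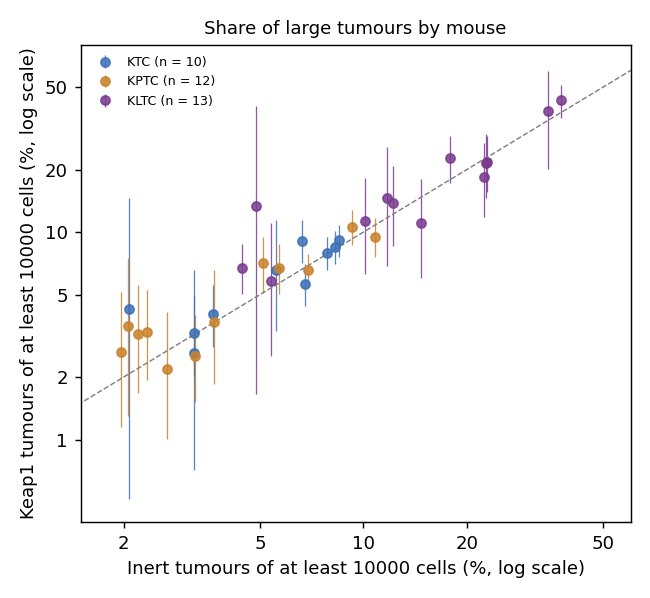
Percent of Keap1 tumours of at least 10000 cells (vertical log axis, with exact 95% binomial intervals) against that of its inert tumours (horizontal log axis), a point per mouse for 10 KTC, 12 KPTC and 13 KLTC mice, with the line of equal shares dashed. Points follow the line from about 2% to 43.2%, and 8 of 10, 8 of 12 and 9 of 13 mice lie above it.

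The largest tumours form a separate tail. At 1000000 cells or more, KTC mice held 9 of 7854 Keap1 tumours (0.115%) and 12 of 39940 inert tumours (0.0300%). The share was above inert in 6 of 10 mice, equal at 0 in the other 4 and below in none, a mean excess of 0.0758 percentage points (95% interval 0.0100 to 0.152). Its exact sign-flip p was 0.0312 and its adjusted p 0.0929, so it did not pass. With 4 of 10 mice at a difference of 0, that p was the smallest the test could give. In KPTC mice the pooled order was the opposite, with 4 of 7581 (0.0528%) against 37 of 39164 (0.0945%), and in KLTC mice 13 of 2130 (0.610%) stood against 51 of 12177 (0.419%). Their mean excesses over mice were 0.0114 and 0.131 points, with adjusted p-values of 0.933 and 0.793 by exact sign-flip test, and at 100000 cells the KTC excess was -0.0790 points.

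In 5 of 10 KTC mice the largest Keap1 tumour was larger than the largest inert tumour, although inert tumours outnumbered Keap1 tumours in every mouse. The count was 2 of 12 in KPTC mice, replicates 2 and 9, and 2 of 13 in KLTC mice. The largest Keap1 tumour of all held 7.47e+06 cells in KTC replicate 1, where the largest inert tumour held 1.27e+06 cells. It made up 64.0% of the Keap1 cells and 7.36% of all listed cells of that mouse. In KPTC replicate 9 a tumour of 4.87e+06 cells made up 82.6% of the Keap1 cells. Single tumours thus set the arithmetic mean and the share of cells in some mice. The arithmetic mean size of Keap1 tumours was lower than that of inert tumours in 10 of 12 KPTC mice and higher in replicates 2 and 9, at log2 ratios of 2.41 and 2.23.

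Keap1 tumours were also counted against inert tumours, a measure that depends on the share of each vector in the pool, which no source here gives, and is read only between genotypes. The number of Keap1 tumours per inert tumour was 0.0975 in the lowest, 0.192 in the median and 0.214 in the highest KTC mouse. In KPTC mice the highest was 0.213 and the mean log2 ratio -2.44 ± 0.20 (SD, n = 12). In KLTC mice it ran from 0.0523 through 0.174 to 0.210. The genotypes overlapped, and the lowest value of all came from KLTC replicate 1, with 15 Keap1 and 287 inert tumours. The lowest KTC value came from replicate 9, with 47 and 482.

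The log2 number ratio of KLTC mice minus that of KTC and KPTC mice together was -0.19 (95% interval -0.45 to 0.05). This difference did not pass (adjusted permutation p = 0.537), while 18.2% of targets did. Without KLTC replicate 1 it was -0.06. Against KTC alone it was -0.17 (adjusted p = 0.838, with 0% of targets called), and KPTC differed from KTC by 0.04 (adjusted p = 0.930, 9.09% called). Within mice of prefix IW the KLTC difference was -0.47 (-0.83 to -0.15, n = 7 against 15) and passed the permutation test with an adjusted p of 0.0115. It still passed without replicate 1, at -0.24 (adjusted permutation p = 0.0461). Permuting labels takes the spread to be alike in both groups. Among IW mice the SD was 0.62 in KLTC, the smaller group, against 0.14 in KTC and 0.24 in KPTC. The p and interval with all IW mice can therefore be too small and too narrow, and the SE of that difference was 0.24. The restriction to prefix IW called 36.4% of the 11 targets. KLTC mice of prefix ZR had a mean log2 ratio of -2.38 ± 0.11 (n = 6) against -2.87 ± 0.62 (n = 7) in those of prefix IW. The part of the prefix in this result was not tested.

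**Figure D4:**
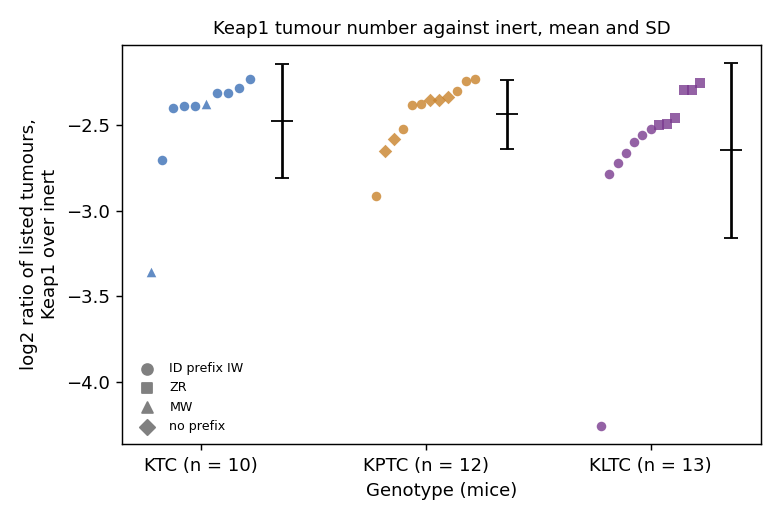
Number of Keap1 tumours over that of inert tumours within a mouse, as a log2 ratio (vertical axis), in KTC, KPTC and KLTC mice (horizontal axis), a point per mouse in rising order with its shape giving the letters that open the mouse name, and a bar for the mean and SD. KTC replicate 9 at -3.36 and KLTC replicate 1 at -4.26 lie below the other mice, and the KLTC mice of prefix ZR lie above those of prefix IW.

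Keap1 tumours made up 4.36% of the listed cells of the median KTC mouse (1.68% to 11.5%), 3.22% of the median KPTC mouse (0.725% to 15.5%) and 4.47% of the median KLTC mouse (1.96% to 9.71%). The share of cells was above the share of tumours in 2 of 10, 2 of 12 and 6 of 13 mice. Listed Keap1 cells per inert cell did not differ detectably between genotypes. The log2 difference of KLTC from both other genotypes was -0.04 (95% interval -0.77 to 0.69; adjusted permutation p = 0.919, with 9.09% of targets called). That value averages opposite directions, with -0.36 (-1.18 to 0.45; adjusted permutation p = 0.658) against KTC and 0.23 (-0.62 to 1.08; adjusted permutation p = 0.810) against KPTC. That of KPTC from KTC was -0.59 (-1.54 to 0.36; adjusted permutation p = 0.469).

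The central comparison was the Keap1 size effect in Lkb1-deleted against Lkb1-intact mice. The log2 ratio of Keap1 over inert was 0.25 ± 0.58 (SD, n = 13) in KLTC mice and 0.06 ± 0.17 (n = 22) in KTC and KPTC mice together. The difference was 0.19 ± 0.17 (SE), or 1.14-fold, with a 95% interval of 0.950 to 1.37. By permutation test its p was 0.167 and its adjusted p 0.262, while 27.3% of the 11 targets passed. The permutation takes the spread over mice to be alike in both groups. Here the smaller group, KLTC, had the larger SD, so this p and interval can be too small and too narrow. KLTC differed from KTC by 0.18 (-0.20 to 0.57; adjusted permutation p = 0.572) and from KPTC by 0.19 (-0.17 to 0.56; adjusted permutation p = 0.558), each with 27.3% of targets called. KPTC differed from KTC by -0.01 (-0.16 to 0.14; adjusted permutation p = 0.871), where 54.5% of targets were called. Of 52 contrasts of Keap1 over 13 measures and 4 pairs of groups, 0 had an unadjusted permutation p under 0.05. With each of the 35 mice left out in turn, the pooled difference lay between 0.083 and 0.28, and its adjusted permutation p between 0.0474 and 0.487. The lowest difference was that without KLTC replicate 2, the mouse with the highest ratio. Only the omission of KLTC replicate 5, the mouse with the lowest ratio, took the adjusted permutation p under 0.05, at a difference of 0.28. The limit from unequal spread holds for that p too.

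Barcodes bear on this comparison because some are listed in several mice. Of 15619 distinct Keap1 barcodes, 870 (5.57%) were listed in 2 or more mice. The most widely listed was found in 20 mice, at 4.67e+06 cells in KLTC replicate 4, at 7304 cells in the next and at a median of 2136 cells in those other than KLTC replicate 4. Each of the 26 Keap1 tumours of 1000000 cells or more had its barcode listed in another mouse too, and the largest such copy held 65620 cells. A tumour is called matched here where the same target and barcode are listed at 10 times its size or more in another mouse. Matched tumours were 3.32% of Keap1 and 6.98% of inert tumours in KTC mice, 2.86% and 6.85% in KPTC mice, and 28.5% and 26.4% in KLTC mice. Of the 608 matched KLTC Keap1 tumours, 540 had their largest copy in another KLTC mouse. Being matched goes with size by its definition. In KLTC mice 32.8% of Keap1 tumours of 500 to 1000 cells were matched, 33.7% of those of 1000 to 10000 cells, 3.45% of those of 10000 to 100000 cells and 0% of larger ones. The inert shares in these classes were 32.7%, 27.2%, 5.76% and 0.154%. From 1000 to 10000 cells, more Keap1 than inert tumours were thus matched in KLTC mice, whereas in KTC mice the shares were 3.22% and 5.82%.

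Without matched tumours the Keap1 ratio in the Lkb1-intact mice moved to 0.02 ± 0.13 (SD, n = 10) in KTC and 0.02 ± 0.22 (n = 12) in KPTC. In KLTC mice it became 0.52 ± 0.77 (n = 13), or 1.44-fold, with a log2 interval of 0.06 to 0.99. It was above 0 in 9 of 13 mice and did not pass after adjustment (exact sign-flip p = 0.0261, adjusted 0.0575). The difference between KLTC and the Lkb1-intact mice became 0.50 ± 0.22 (SE), or 1.42-fold with an interval of 1.12 to 1.80. Its adjusted permutation p was 0.00854, and 45.5% of the 11 targets were under the threshold with the same filter. Since the filter removes tumours by their size, and not equally for Keap1 and inert tumours, this p is given as a value and not as a test of the genotypes. The SD was 0.77 in KLTC mice against 0.18 in the Lkb1-intact mice together, so the permutation interval can also be too narrow. With each of the 35 mice left out in turn the difference lay between 0.37 and 0.60. Against KTC alone (0.51) and KPTC alone (0.50) the adjusted permutation p was 0.108 and 0.100.

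The value without matched tumours also moved with the largest tumours. With each target's largest tumour in a mouse left out as well, the difference was 0.28 (-0.02 to 0.60) and the adjusted permutation p 0.155. With the largest tumours left out and matched tumours kept it was 0.01 (-0.23 to 0.25, adjusted permutation p = 0.942). Leaving out 1 tumour per target and mouse removes a larger part of the Keap1 than of the inert tumours. That part is larger where Keap1 tumours are few, as in most KLTC mice. Its share in these falls was not tested. With every barcode found in several mice left out, the large copies too, the difference was 0.19 (-0.08 to 0.47, adjusted permutation p = 0.237) over 1129 KLTC tumours of Keap1. The part of shared barcodes in the comparison of genotypes was not tested beyond these values.

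**Figure D5:**
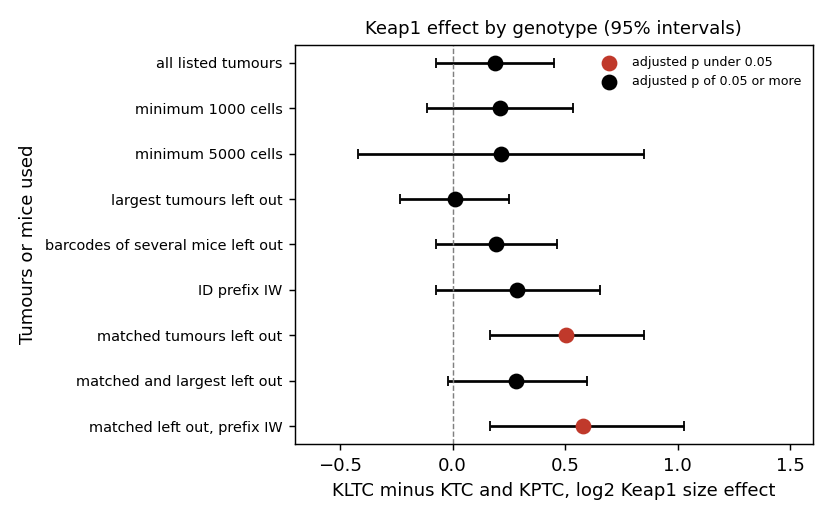
Difference in the log2 Keap1 size effect between KLTC mice and KTC and KPTC mice together (horizontal axis), with 95% intervals, for each set of tumours or mice used (vertical axis), red where the adjusted permutation p is under 0.05. The difference is 0.19 with all listed tumours, 0.50 without matched tumours, 0.28 without matched and largest tumours and 0.01 without the largest tumours. The permutation intervals can be too narrow where KLTC, the smaller group, has the larger spread.

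Set against the other targets of the same mouse, Keap1 lay among the small effects of the Lkb1-intact genotypes. In KTC mice its log-normal mean was below that of 3 of 10 targets (30% of pairs called) and above none. It was 0.523-fold that of Lkb1 and 0.451-fold that of Setd2, a histone methyltransferase of transcribed genes, in each case smaller in 10 of 10 mice (adjusted exact sign-flip p = 0.00977 for both). It was 0.873-fold that of the splicing regulator Rbm10, smaller in 9 of 10 mice (adjusted exact p = 0.0130). Its neighbours in the order of mean effects were Cdkn2a, an inhibitor of cell cycle kinases, at 0.11 ± 0.17 and P53 at 0.06 ± 0.15. Neither difference from Keap1 passed (adjusted exact p = 0.534 and 0.959, log2 intervals -0.17 to 0.09 and -0.12 to 0.13).

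In KPTC mice Keap1 was below 4 of 10 targets (40% called) and above none. The 4 were Setd2 (0.643-fold), Rb1 (0.740-fold), which restrains entry into S phase, Lkb1 (0.786-fold) and APC (0.890-fold), with adjusted exact sign-flip p-values from 0.00488 to 0.0195. Guides against P53 target a gene that Cre is meant to delete in KPTC mice and serve there as a further control. Keap1 tumours were 1.06-fold the size of P53 tumours, a log2 difference of 0.08 (-0.04 to 0.22; adjusted exact p = 0.252). P53 was the next below Keap1 in that order and Rbm10, at 0.10 ± 0.19, the next above, whose difference from Keap1 did not pass either (-0.18 to 0.09; adjusted exact p = 0.489).

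In KLTC mice 0 of 10 differences from Keap1 passed after adjustment (0% called), and 2 had an unadjusted exact sign-flip p under 0.05. These were APC, larger than Keap1, with a log2 difference of -0.42 (p = 0.0193, adjusted 0.193), and Lkb1. Guides against Lkb1 target a gene that Cre is meant to delete in KLTC mice. Keap1 tumours were 1.43-fold the size of Lkb1 tumours, larger in 12 of 13 mice, with a log2 difference of 0.51 (0.00 to 0.96; exact p = 0.0474, adjusted 0.237). The ratio of Lkb1 to inert tumours in these mice was -0.27 ± 0.65, so this control lay below the inert tumours by about as much as Keap1 lay above them. The neighbours were Rb1 at 0.27 ± 0.86 and Setd2 at 0.12 ± 0.50, and neither difference from Keap1 passed (adjusted exact p = 0.951 and 0.726, log2 intervals -0.59 to 0.56 and -0.27 to 0.52).

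Of the other 10 targets, the one whose ratios went most closely with those of Keap1 over the 35 mice, after each genotype's mean was subtracted, was Arid1a, a subunit of SWI/SNF chromatin remodellers. Its Pearson correlation with Keap1 was 0.72 and its Spearman correlation 0.41. Within genotypes it was -0.61 in KTC, 0.37 in KPTC and 0.77 in KLTC mice, so the pooled value follows the KLTC mice. The next was Smad4, a mediator of TGF-beta signalling, at 0.52 and 0.30. Points share the inert tumours of each mouse as denominator and its library, and these correlations are given as descriptions.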

How the data were processed

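The deposited table gives the authors' absolute number of cells per tumour for each mouse, target and barcode, a unit taken from how the authors labelled the table, with no column headers. The standard behind this scale, barcode grouping, PCR correction and genome build are not given in these sources. Per the labels' protocols, barcodes were amplified from whole-lung DNA. Every listed size is above 500 cells, the smallest being 500.4 cells, so smaller tumours are not seen. Reads per library are unknown, and depth was taken as listed tumours per mouse: in KTC mice 1271 to 26167, in KPTC mice 3553 to 30646, and in KLTC mice 723 to 15067. 2 repeated entries of a mouse, target and barcode were kept.

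For each target with at least 10 tumours in a mouse, the log-normal mean was exp(m + 0.5 v) from the mean m and variance v of ln size, and effects were log2 ratios to inert tumours of the same mouse. Means over mice were tested by two-sided exact sign-flip permutation, and genotypes by permuting mouse labels (100000 resamples). Intervals at 95% invert these tests. Permuting labels takes the spread over mice to be alike in both groups. Where the smaller group has the larger SD, such p-values can be too small and such intervals too narrow. P-values were Benjamini-Hochberg adjusted over 11 targets, over 110 target and measure pairs, or over 10 for Keap1 against the other targets, at a threshold of 0.05. The mouse was the replicate, numbered in order of accession, and nothing states litters or batches beyond name prefixes. Within a mouse every target is set against the same inert tumours, and contrasts that use the same genotype share mice.

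Simulated sizes of all 11 targets were drawn from the inert tumours of the same mouse, and Keap1 sizes were multiplied by the same fold in every mouse. In 20 simulations of each fold, a 1.5-fold Keap1 effect was called in 100% of KTC and KPTC and 35% of KLTC simulations. A 2-fold effect was called in 100%, 100% and 90%, and no effect in 0%, 0% and 10%. These rates do not cover Keap1 effects that vary between mice or effects of other targets. The Keap1 members, tests and alternatives were chosen with earlier results of these data known. Named targets were Keap1, the 2 whose ratios correlate best with it, its neighbours in mean effect and the controls P53 in KPTC and Lkb1 in KLTC; others were named after their values were seen. Alternatives were minimum sizes of 1000 and 5000 cells, other percentiles, leaving out matched tumours, largest tumours or single mice, and mice of prefix IW. Python 3.11.15, numpy 2.4.6, pandas 2.3.3 and scipy 1.17.1 were used.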

Additional observations from a re-analysis of the deposited data

Results flagged for a closer look

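The 10 KTC mice, the one genotype with at most 10 mice, were checked on 13 Keap1 measures, and 3 had a mouse standing apart from the rest. The rule compares the gap to the nearest mouse with the range, at a level of about 1 in 20 for normal values. The measures overlap, and the 99th percentile and arithmetic mean stand apart in the same mouse, so the count was not set against chance. In KTC replicate 1 the 99th percentile of Keap1 tumours over that of inert tumours had a log2 ratio of 1.95 (3.87-fold), with the nearest mouse at 0.50 and a median of -0.14. The arithmetic mean size in the same mouse had a log2 ratio of 2.30 (4.91-fold), with the nearest mouse at 0.79 and a median of 0.14, and the tumour of 7.47e+06 cells is in this mouse. In KTC replicate 9 the log2 ratio of the number of Keap1 tumours to that of inert tumours was -3.36, with the nearest mouse at -2.70 and a median of -2.38, from 47 Keap1 tumours.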

How the results depend on the processing

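Of 605 recomputed values of 24 results, 549 kept their direction and side of the threshold, or a similar count. Of the rest, 47 turned direction, 8 became stronger and 1 became weaker. The stronger values were tests that newly passed or counts of targets differing from Keap1 that rose. The weaker value was such a count, in KPTC mice, which fell from 4 to 0, and no test stopped passing. Causes were not tested. None of the 47 that turned passed the test before or after. No paired analysis was possible because the replicate numbers were given in order of accession and the labels pair no mice across genotypes.

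At the median, the log2 ratio was -0.0035 in KLTC, and the differences between genotypes were -0.011 (KLTC against both), -0.016 (against KTC) and -0.0067 (against KPTC). At the 99th percentile these 3 differences were -0.32, -0.25 and -0.37. By arithmetic mean KPTC was -0.28 and KLTC against KTC -0.19, and by the share of at least 1000 cells that difference was -0.358 percentage points. The KPTC ratio was -0.035 in IW mice, -0.0052 without the largest tumours, -0.038 without matched and largest tumours and -0.080 without matched tumours in IW mice, and KTC was -0.044 without matched and largest tumours. The 95th percentile ratio was -0.082 (KLTC) and -0.17 (KPTC) at a minimum of 5000 cells, and in KTC -0.014 in IW mice and -0.055 without matched tumours.

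KPTC against KTC was 0.0090, 0.058 and 0.13 at the 90th, 95th and 99th percentiles, 0.0013 with at least 100 tumours, 0.066 without barcodes of several mice, 0.0053 without matched tumours, 0.0059 without these and the largest, 0.028 at 1000 cells and 0.0187 percentage points by the share of at least 100000 cells. KLTC against both was 0.50 without matched tumours, a filter that itself acts on size. It was 0.58 (adjusted permutation p = 0.0101) without matched tumours in IW mice, with the limits from the filter and from unequal spread given above. With all listed tumours of IW mice it was 0.29 (adjusted permutation p = 0.200) and did not pass. Listed cells of KLTC against both were 0.078 at 5000 cells. In IW mice the number differences were -0.47 (KLTC against both), -0.49 (against KTC) and -0.047 (KPTC against KTC, -0.042 at 5000 cells). Of the other 10 targets, 1 differed from Keap1 in KLTC without largest or without matched tumours, 0 in KPTC at 5000 cells and 5 in KTC with at least 100 tumours.

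With each mouse left out, KLTC against both lay between 0.083 and 0.28 for size and -0.16 and 0.13 for cells. KPTC against KTC lay between -0.060 and 0.0084 for size and -0.060 and 0.081 for number. Within genotypes the log-normal ratio lay between 0.046 and 0.085 in KTC, 0.0072 and 0.073 in KPTC and 0.14 and 0.34 in KLTC. KLTC mice held a median of 126 Keap1 tumours each.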
